A study of Bos taurus with 32 samples.

Results

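Liver transcript levels at 9 d after calving were compared with those at 1 d after calving in dairy cows kept on a controlled-energy diet (CON) in late pregnancy. The samples were taken by the diet and day in the labels: 10 of the 32 arrays of the study, 4 at 1 d and 6 at 9 d. They came from 6 CON cows of 12 cows in all, and 4 of them (numbers 445, 477, 483 and 510) were sampled on both days, while cows 527 and 528 gave a 9 d array only. All cows were Ayrshires. CON or a high-energy diet (HIGH) was fed for 6 weeks up to the predicted calving, and liver was biopsied on day -8 before the predicted calving and on days 1 and 9 after the actual one. Each array holds total RNA of 1 liver biopsy of 1 cow, and the labels give neither age nor parity nor what was fed after calving. The comparison asks how the liver differed between the first day of lactation and the second week, within 1 diet.

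In the days around calving the liver of a dairy cow takes up fatty acids released from body fat and makes nearly all of the glucose that milk lactose needs. Calving is also accompanied by an acute phase response, in which hepatocytes secrete haptoglobin, serum amyloid A and other plasma proteins. Secreted proteins are folded and oxidised in the endoplasmic reticulum by chaperones and disulfide isomerases. Fatty acid and cholesterol synthesis are driven by the sterol regulatory element-binding proteins, which respond to insulin and to sterol supply.

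Levels are the deposited log2 values, on which 1 unit is a 2-fold difference, and a level of 1 gene is not compared with that of another, because probe sets differ in brightness. The 10 arrays had medians between 5.86 and 5.9, and arrays within a day correlated at 0.9878 to 0.9935. One array stood apart. In cow 528 at 9 d all 23 skeletal muscle genes examined, a list made after the values were seen, were at their highest of the 10 arrays, 22 of them by more than 1 log2 unit. For this count each gene was read from its probe set with the widest gap between the highest array and the next, so the count is picked. Read from the brightest probe sets, the list mean was 8.28 in cow 528 at 9 d, against 4.80 to 4.94 on the other 9 arrays. In the same array MYH1, a muscle myosin heavy chain, was at 11.49, against 3.44 to 3.94 on the others. Without this array 13 of 97 followed genes that had passed the test no longer did: AHCY, ALDH1A1, ALDH1L1, ALDH4A1, ASGR1, CEBPG, FGG, HRG, IVD, NDUFB11, NDUFB9, PC and SERPINA6, with adjusted p-values of 0.0515 (HRG) to 0.0924 (ALDH4A1). The elongation factor 1 alpha control, whose 3′ level minus its 5′ level is a measure of RNA integrity, averaged -1.18 at 1 d (SD 0.176, n = 4) and -0.812 at 9 d (SD 0.164, n = 6). For GAPDH this difference averaged 0.475 at 1 d and 0.565 at 9 d, and for cyclophilin 1.11 and 1.227. The actin control had medians of 1.62 and 1.65. The part of these shifts in the results was not tested. In bulk tissue, fewer cells of a type and less RNA per cell cannot be told apart.

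The test was limma with cow as a random block, with p-values adjusted by the Benjamini-Hochberg method over all 24016 probe sets and a threshold of 0.05. By this test 663 probe sets, 2.76%, differed between the days: 335 were higher at 9 d (1.39%) and 328 were lower (1.37%). Of these, 223 (0.929%) differed by at least 1.5-fold. Among 9155 named genes, each read from its brightest probe set, 329 (3.59%) passed, 145 (1.58%) higher and 184 (2.01%) lower, and the median change of all genes was -0.02. At an unadjusted p under 0.05, 1639 genes (17.9%) differed, 651 (7.11%) higher and 988 (10.8%) lower. In 352 genes (3.84%) the values of the 2 days did not overlap. The number of probe sets past the threshold depended on the arrays. Without 1 of the 1 d arrays it was 691 (2.88%), 646 (2.69%), 304 (1.27%) and 346 (1.44%) for cows 445, 477, 483 and 510. Without 1 of the 9 d arrays it was 453 (1.89%), 471 (1.96%), 562 (2.34%), 421 (1.75%) and 677 (2.82%) for cows 445, 477, 483, 510 and 527, and 522 (2.17%) without the muscle-containing array of cow 528. A fit of the 10 arrays alone gave 145 (0.604%), the 4 cows with both days 115 (0.479%), no block for cow 375 (1.56%) and cow as a fixed term 699 (2.91%). Of 97 genes past the threshold that were followed through these settings, 53 lost their call when some array was left out, 70 in the fit of the 10 arrays alone and 29 with no block. None changed sign.

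"Rose" and "fell" are used here of genes past the threshold, and changes are log2 differences, 9 d minus 1 d. The largest fall was that of GPX3, which encodes the glutathione peroxidase of plasma. Its level at 1 d was 9.39, 8.30, 9.82 and 7.66 in cows 445, 477, 483 and 510. By 9 d it ranged from 4.31 to 6.67 with a median of 5.52. Every 1 d value lay above every 9 d value. GPX3 fell by 3.26 (SE 0.36, limma adjusted p = 4.19e-06), a 9.57-fold difference, and it fell in all 4 cows sampled on both days, by 4.17, 1.96, 4.65 and 3.35. Before calving the mean level was 4.5. The 1 d level was 4.41 above that at -8 d (adjusted p = 1.94e-08), and the 9 d level was 1.15 above it (adjusted p = 0.0745). These comparisons share arrays with the one between 1 d and 9 d. Over all probe sets 6.34% differed between -8 d and 1 d and 1.84% between -8 d and 9 d.

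**Figure D1:**
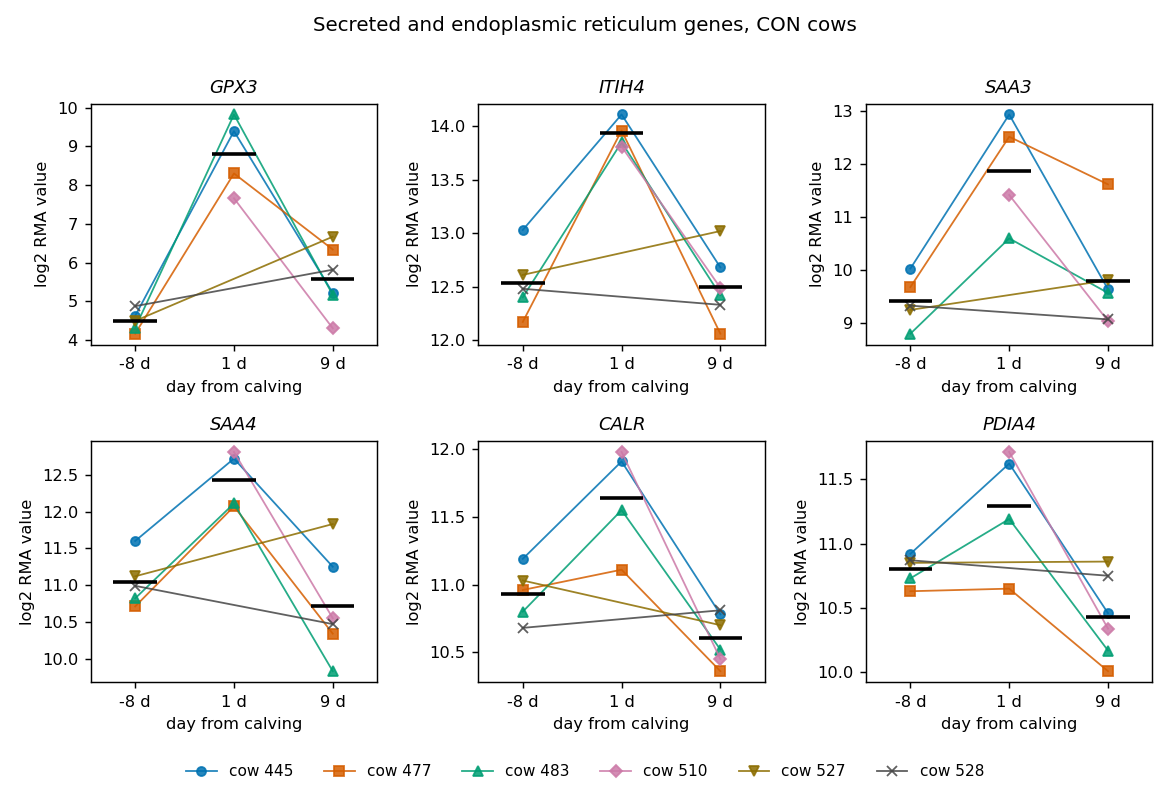
Log2 level (y axis) by day relative to calving (x axis: -8, 1 and 9) of 6 genes that fell from 1 d to 9 d in CON cows: GPX3, ITIH4, SAA3, SAA4, CALR and PDIA4. Each colour and marker is 1 cow, lines join the arrays of a cow, and black bars are group means; the 1 d values of GPX3, ITIH4, SAA4 and CALR all lie above their 9 d values.

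Acute phase proteins were lower at 9 d. Of the 28 measured members of the list, 11 fell and none rose, against 2.01% of all genes lower and 1.58% higher. The median change was -0.25, against -0.02 over all genes, 23 members lay below 0, and 6 did not overlap between the days (3.84% over all genes). The mean of the list fell in each cow with both days, by 0.70, 0.53, 0.75 and 0.61 in cows 445, 477, 483 and 510. The number of members that fell was 7 without cow 445 or cow 483 at 1 d, or without cow 477 at 9 d. It was 7 with no block for cow, 6 in the 4 paired cows and 3 in the fit of the 10 arrays alone.

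ITIH4, a plasma protein of the inter-alpha-trypsin inhibitor family that rises in inflammation in cattle, had the smallest p-value among members. It was at 14.11, 13.96, 13.85 and 13.81 at 1 d in the order of cows above. The 9 d values ran from 12.06 to 13.02 with a median of 12.46. The days did not overlap and the 1 d values were close together. ITIH4 fell by 1.44 (SE 0.13, adjusted p = 3.3e-08), and its difference between 9 d and -8 d was -0.03 (adjusted p = 0.949). SAA4, a serum amyloid A, was at 12.72, 12.07, 12.11 and 12.81 at 1 d. The 9 d range was 9.83 to 11.83, median 10.51. Again no value overlapped, and SAA4 fell by 1.74 (SE 0.26, adjusted p = 0.000289).

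SAA3, an inducible serum amyloid A, was at 12.93, 12.51, 10.59 and 11.41 at 1 d. Its 9 d range was 9.03 to 11.61, median 9.60. The highest 9 d value, from cow 477, lay above the 1 d values of cows 483 and 510, so the days overlapped. SAA3 fell by 2.05 (SE 0.44, adjusted p = 0.00857). In the fit of the 10 arrays alone its adjusted p was 0.0849, and FGB, LBP, HPX and CP did not pass there either. LBP, which binds bacterial lipopolysaccharide, fell by 1.5 (SE 0.37, adjusted p = 0.023). LBP overlapped because cow 527, which has no 1 d array, was at 12.88 at 9 d, and it lost its call when any of 6 arrays was left out. FGB, the fibrinogen beta chain, fell by 0.93 (SE 0.21, adjusted p = 0.0126) and lost its call without cow 445 at 1 d. The fibrinogen gamma chain gene FGG fell by 0.16 (adjusted p = 0.0267) and had an adjusted p of 0.0583 without the muscle-containing array.

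The other members that fell were SERPINA3-7, a relative of antichymotrypsin (-0.56, adjusted p = 0.000506), the haem carrier HPX (-0.43, 0.00288), the copper protein CP (-0.29, 0.00239), the protease trap A2M (-0.89, 0.0281) and the mannose-binding lectin MBL1 (-0.70, 0.0225). ITIH4, SAA4 and SERPINA3-7 kept their call under every alternative run. HP, haptoglobin, did not pass the test. It was at 14.84, 14.88, 14.86 and 14.88 at 1 d, near the top of the table, whose highest value is 14.99. The 9 d values ran from 9.49 to 14.54, median 12.3. No 9 d value reached a 1 d value, but the 9 d values were far apart (SD 1.82), and the difference of -2.80 had an SE of 0.95 and an adjusted p of 0.117.

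Among 19 measured plasma proteins that are lowered in an acute phase response, 3 rose and 1 fell, against 1.58% and 2.01% of all genes. HRG, histidine-rich glycoprotein, was at 11.78, 12.96, 12.79 and 10.96 at 1 d and at 13.17 to 13.39, median 13.27, at 9 d. The 1 d values were spread and the 9 d values lay close together above them. HRG rose by 1.15 (SE 0.31, adjusted p = 0.0347). SERPINA6, the cortisol carrier of plasma, was at 6.82, 7.61, 7.28 and 6.21 at 1 d and at 7.87 to 9.30, median 8.52, at 9 d, with no overlap. It rose by 1.45 (SE 0.39, adjusted p = 0.0362). SERPIND1, heparin cofactor, rose by 0.38 (adjusted p = 0.00874), and CPN1, a subunit of carboxypeptidase N, fell by 0.58 (adjusted p = 0.00842). HRG and SERPINA6 lost their calls when any of 7 arrays was left out, cow 528 at 9 d among them, where SERPINA6 had an adjusted p of 0.0559. With no block, SERPIND1 was 1 riser beside 1 faller, and no member passed in the fit of the 10 arrays alone. Of 41 measured complement and coagulation genes, SERPINF2 (-0.48), F5 (-0.43) and PLG (-0.27) fell and SERPIND1 rose.

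Genes of protein folding and secretion fell alongside. Of 35 measured endoplasmic reticulum chaperones and translocation genes, 12 fell and none rose, against 2.01% and 1.58% of all genes. Their median was -0.46, 33 of 35 lay below 0, 26 were lower at an unadjusted p under 0.05 (10.8% of all genes), and 6 did not overlap (3.84% of all genes). The list mean fell by 0.63, 0.39, 0.63 and 0.61 in cows 445, 477, 483 and 510. The number of members that fell was 8 without cow 483 at 1 d and 8 with no block, 6 in the paired cows and 5 in the fit of the 10 arrays alone.

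CALR, the lectin chaperone calreticulin, was at 11.91, 11.11, 11.55 and 11.98 at 1 d. By 9 d it lay at 10.36 to 10.81, median 10.61. The lowest 1 d value, of cow 477, lay above the highest 9 d value. CALR fell by 1.04 (SE 0.17, adjusted p = 0.000569). NUCB2, a calcium-binding protein of the secretory pathway, was at 10.11, 9.54, 10.08 and 10.43 at 1 d and at 7.86 to 9.22, median 8.67, at 9 d. Its days did not overlap either, and it fell by 1.48 (SE 0.22, adjusted p = 0.000332). SEC11C, a catalytic subunit of the signal peptidase, was at 11.57, 11.51, 11.88 and 12.09 at 1 d and at 10.77 to 11.27, median 11, at 9 d. SEC11C fell by 0.76 (SE 0.10, adjusted p = 9.61e-05), again without overlap.

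Among enzymes that form disulfide bonds, PDIA3 fell by 0.60 (SE 0.10, adjusted p = 0.00111), PDIA4 by 0.89 (SE 0.17, adjusted p = 0.00243) and the oxidase ERO1A, which reoxidises the isomerases, by 0.85 (SE 0.15, adjusted p = 0.00203). PDIA4 overlapped between the days, because the 1 d value of cow 477, 10.65, was below the highest 9 d value, 10.86. ERO1A did not overlap, with 7.14, 6.22, 6.26 and 6.12 at 1 d against 5.35 to 5.81 at 9 d. The remaining falls were those of SSR3, SSR4, SPCS3, SDF2L1, DNAJC3 and CREB3L3, between -0.48 and -0.68. HSPA5, the main chaperone BiP, named here after its values were seen, was at -0.40 (adjusted p = 0.398) and HSP90B1 at -0.46 (adjusted p = 0.0708). PDIA4 did not pass in the fit of the 10 arrays alone, and SEC11C did not pass in the 4 paired cows. The median change of the list was 0.35 from -8 d to 1 d and -0.11 from -8 d to 9 d, both of which share arrays with the comparison here.

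In the oxidative stress list 4 of 37 measured genes fell and 2 rose, against 2.01% and 1.58% of all genes, with a median of -0.03. Beside GPX3, the peroxiredoxin of the endoplasmic reticulum PRDX4 fell by 0.76 (SE 0.12, adjusted p = 0.000374). The secretory pathway peroxidase GPX7 fell by 0.75 (adjusted p = 0.0255) and the haem oxygenase HMOX2 by 0.41 (adjusted p = 0.0162). GPX7 lost its call without cow 477 or 483 at 1 d or cow 510 at 9 d. HMOX2 lost it without cow 445, 483 or 510 at 1 d and in the fit of the 10 arrays alone (adjusted p = 0.101). Extracellular superoxide dismutase SOD3 rose by 0.90 (adjusted p = 0.0477) and the microsomal transferase MGST1 by 0.25 (adjusted p = 0.0162), and neither passed without cow 445 or without cow 510 at 1 d. Other large falls were those of RGS16, a brake on G protein signalling (-1.48, SE 0.25, adjusted p = 0.000893), the kinase PIM1 (-1.32, SE 0.28, 0.00679), HOPX (-1.75, SE 0.44, 0.0243), LOXL4, a lysyl oxidase (-1.0, 0.023), CHIA, a chitinase (-0.94, 0.0225), and FOLR3, a folate receptor (-0.94, 0.0024). PIM1, HOPX, LOXL4 and CHIA lost their calls without cow 483 at 1 d and in the fit of the 10 arrays alone. HOPX, LOXL4 and CHIA also lost theirs without other arrays. RGS16 and FOLR3 kept theirs under every alternative run. RGS16 at 9 d was 1.1 below its level at -8 d (adjusted p = 0.0116).

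Interferon-stimulated genes were lower at 9 d in 3 of 4 cows. Of 30 measured members, 5 fell and none rose, against 2.01% and 1.58% of all genes. The median was -0.43, 28 lay below 0 and 19 were lower at an unadjusted p under 0.05 (10.8% of all genes). Of the 30 members 1 did not overlap between the days, against 3.84% of all genes. The list mean changed by -1.18, -0.36, 0.17 and -0.48 in cows 445, 477, 483 and 510. The mean of the Kupffer cell and macrophage markers changed by -0.51, -0.39, 0.44 and 0.02 in the same cows, and its part in the interferon result was not tested. At 1 d the interferon list mean was highest in cow 445, at 7.98 against 7.12 to 7.31 in the others. At 9 d it was highest in cow 483, at 7.48 against 6.69 to 7.03. No member passed without cow 445 at 1 d or in the fit of the 10 arrays alone, and 8 passed without cow 483 at 9 d or with cow as a fixed term. The count was 1 without cow 510 at 9 d and 2 without cow 483 at 1 d, without cow 445 or 477 at 9 d, or with no block. The members that fell were PARP9 (-0.81, SE 0.19, adjusted p = 0.0145), the ISG15 protease USP18 (-0.73, 0.0246), the transcription factors IRF9 (-0.56, 0.0307) and IRF7 (-0.49, 0.0202), and LGALS3BP (-0.46, 0.0277). ISG15, a ubiquitin-like protein, was at 11.62, 9.18, 10.19 and 9.01 at 1 d and at 7.42 to 10.49, median 7.90, at 9 d. Its highest 9 d value was that of cow 483, and its change of -1.64 (SE 0.47) had an adjusted p of 0.0508.

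Genes of cell division were higher at 9 d. Of 42 measured members 18 rose and none fell, against 1.58% and 2.01% of all genes. The median change was 0.62, 40 of 42 lay above 0, and 7 did not overlap between the days (3.84% of all genes). The list mean at 1 d lay between 5.31 and 5.52. At 9 d it was 6.37, 7.14, 6.54, 5.46, 5.88 and 5.90 in cows 445, 477, 483, 510, 527 and 528. Cows differed widely at 9 d: cow 477 gained 1.73, cow 483 1.03, cow 445 0.86 and cow 510 0.15, and the 9 d value of cow 510 lay within the range at 1 d.

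**Figure D2:**
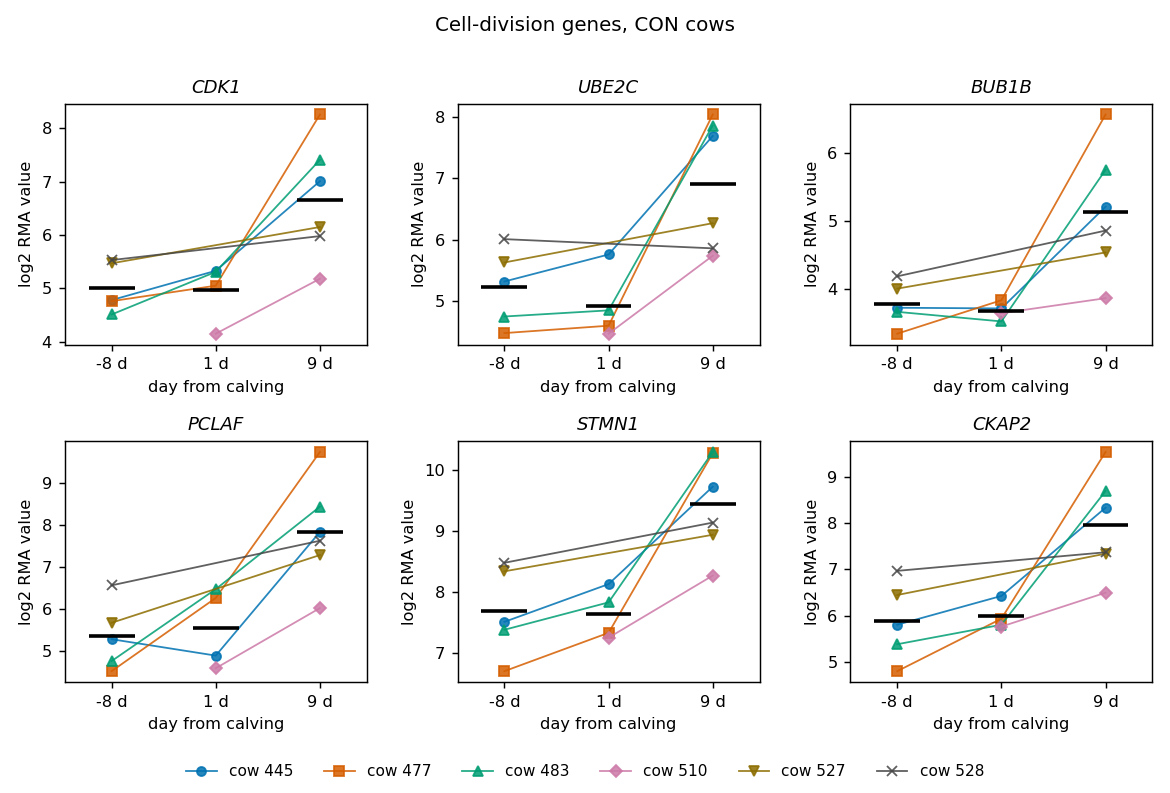
Log2 level (y axis) by day relative to calving (x axis: -8, 1 and 9) of CDK1, UBE2C, BUB1B, PCLAF, STMN1 and CKAP2 in CON cows. Colours and markers are cows, lines join the arrays of a cow and black bars are group means; cow 510 has the lowest 9 d value in all 6 panels, while cow 477 has the highest in all but STMN1.

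CDK1, the kinase that drives entry into mitosis, was at 5.33, 5.05, 5.31 and 4.15 at 1 d. Its 9 d values ran from 5.18 to 8.26, median 6.58. The only overlap was from cow 510, which started lowest at 1 d and rose to 5.18. CDK1 rose by 1.71 (SE 0.35, adjusted p = 0.00542). UBE2C, a ubiquitin-conjugating enzyme of mitotic exit, was at 5.76, 4.60, 4.85 and 4.47 at 1 d and at 5.74 to 8.04, median 6.98, at 9 d. The 1 d value of cow 445 just exceeded the lowest 9 d value, and UBE2C rose by 2.00 (SE 0.39, adjusted p = 0.00369). BUB1B, a spindle checkpoint kinase, was at 3.72, 3.84, 3.53 and 3.65 at 1 d and at 3.87 to 6.56, median 5.04, at 9 d. No BUB1B value overlapped, and it rose by 1.45 (SE 0.31, adjusted p = 0.00721).

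CKAP2, a spindle protein, rose by 1.96 (SE 0.44, adjusted p = 0.0122) and NDC80, a kinetochore subunit, by 0.66 (SE 0.13, adjusted p = 0.00487), each without overlap. The other risers of the list included the cyclins CCNA2 (1.32), CCNB1 (1.34) and CCNB2 (1.59), the spindle genes NUSAP1 (1.61) and BUB1 (1.36), the cytokinesis factor ECT2 (1.53) and survivin, BIRC5 (1.44). CDC20 (0.99), CENPF (0.98), KIF20A (0.52), CKS2 (1.11), HMMR (0.82) and MELK (1.04) rose too. SHCBP1, outside the list and among the 15 largest rises, rose by 1.6 (SE 0.34, adjusted p = 0.00693) and did not pass in the fit of the 10 arrays alone (adjusted p = 0.11). From -8 d to 1 d the median change of the list was 0.00 and from -8 d to 9 d it was 0.62. The number that rose was 7 without cow 483 at 1 d, 9 without cow 510 at 1 d, 10 without cow 477 on either day, 11 without cow 483 and 12 without cow 445 at 9 d, and 21 without the muscle-containing array. It was 12 with no block, 4 in the paired cows and 0 in the fit of the 10 arrays alone, where CDK1 had an adjusted p of 0.109.

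In the list of DNA replication and nucleotide supply 2 of 42 measured members (4.76%) rose and none fell, with a median of 0.12. Over all genes 1.58% were higher and 2.01% lower. Both risers were among the 15 largest rises. PCLAF, a partner of the replication clamp, was at 4.89, 6.26, 6.47 and 4.59 at 1 d and at 6.02 to 9.73, median 7.72, at 9 d. The lowest 9 d value, again of cow 510, lay below the 1 d values of cows 477 and 483. PCLAF rose by 2.24 (SE 0.50, adjusted p = 0.0101), a 4.72-fold difference and the largest rise of a named gene, and lost its call without cow 510 at 1 d. STMN1, which destabilises microtubules, was at 8.13, 7.33, 7.83 and 7.25 at 1 d and at 8.27 to 10.3, median 9.44, at 9 d, with no overlap. STMN1 rose by 1.79 (SE 0.37, adjusted p = 0.00626) under every alternative run. The replication clamp gene PCNA (0.40, adjusted p = 0.168) and the ribonucleotide reductase subunit RRM2 (1.33, adjusted p = 0.0701), named after their values were seen, did not pass. Whether mitosis and replication genes differed in their change was not tested.

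Genes of fatty acid and cholesterol synthesis were among the risers. Of 14 measured genes of fatty acid synthesis and desaturation, 5 rose and none fell, with a median of 0.44. Of 16 measured genes of cholesterol synthesis, 8 rose and none fell, with a median of 0.55, and 15 lay above 0. Over all genes 1.58% were higher and 2.01% lower. In the list of triglyceride synthesis and lipoprotein assembly 1 of 22 measured genes rose and 1 fell, with a median of -0.02. At an unadjusted p under 0.05, 3 were higher and 5 lower (7.11% and 10.8% of all genes). The days did not overlap for 4 of them (3.84% of all genes). PLIN2 did not pass but changed by -0.47, -0.90, -0.79 and -0.62 in cows 445, 477, 483 and 510. The cholesterol list mean gained 0.95, 0.03, 0.42 and 0.73 in cows 445, 477, 483 and 510, and the fatty acid list 1.23, 0.17, 0.70 and 0.59. Cow 477 gained least in both. Without cow 445 at 1 d or without cow 510 at 1 d, 4 cholesterol and 3 fatty acid members rose. In the fit of the 10 arrays alone these were 1 and 2, and in the 4 paired cows 1 and 0.

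**Figure D3:**
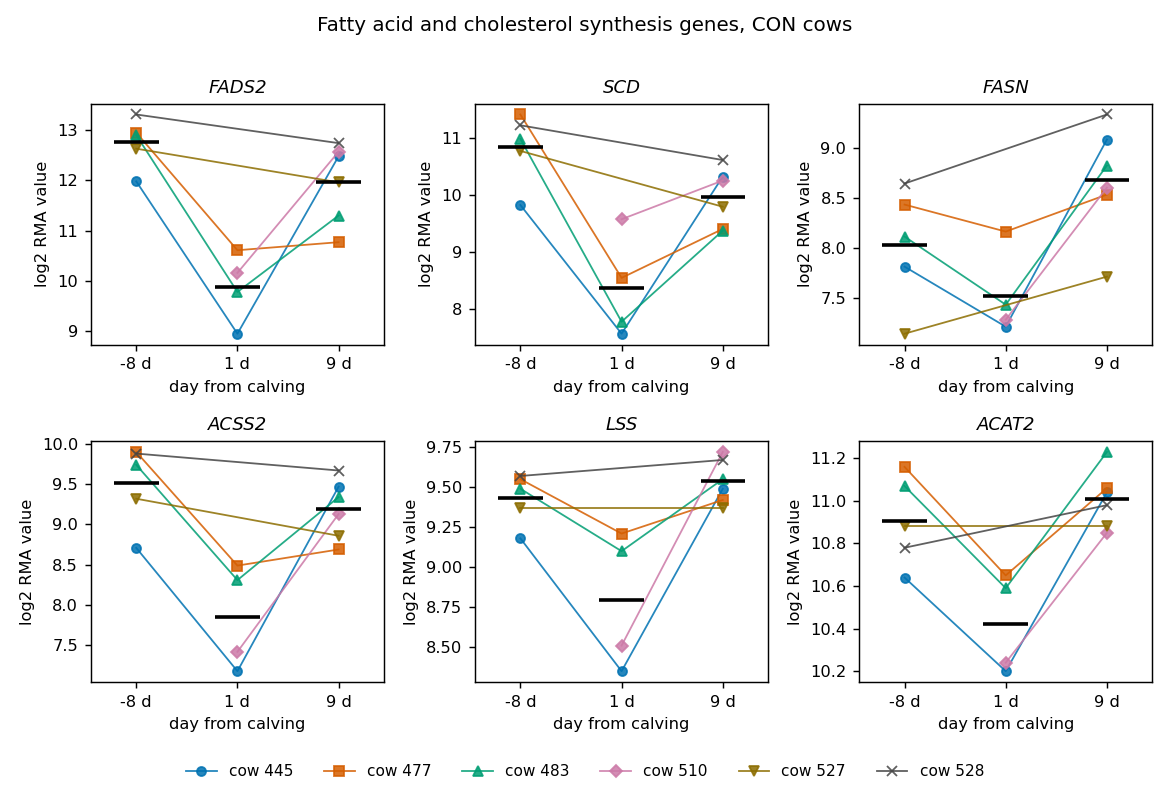
Log2 level (y axis) by day relative to calving (x axis: -8, 1 and 9) of FADS2, SCD, FASN, ACSS2, LSS and ACAT2 in CON cows. Colours and markers are cows, lines join the arrays of a cow and black bars are group means; in the FADS2 panel the mean at 1 d is 9.88 and at 9 d 11.97.

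FADS2, the first desaturase in the making of long polyunsaturated fatty acids, was at 8.95, 10.61, 9.78 and 10.16 at 1 d. Its 9 d values lay between 10.77 and 12.74, median 12.22. The days did not overlap, although cow 477 gained only 0.16. FADS2 rose by 2.06 (SE 0.39, adjusted p = 0.00294), a 4.17-fold difference. From -8 d to 1 d it fell by 2.86 (adjusted p = 0.000104), and the difference between 9 d and -8 d was -0.80 (adjusted p = 0.338).

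SCD, which introduces the double bond of oleate, was at 7.56, 8.54, 7.77 and 9.57 at 1 d and at 9.37 to 10.61, median 10.02, at 9 d. Cow 510 alone made the days overlap. SCD rose by 1.57 (SE 0.39, adjusted p = 0.0213) and lost its call without cow 445 on either day or cow 483 at 1 d. ACSS2, which activates acetate, was at 7.18, 8.49, 8.31 and 7.42 at 1 d and at 8.69 to 9.67, median 9.23, at 9 d. ACSS2 did not overlap, rose by 1.33 (SE 0.29, adjusted p = 0.00999) and lost its call without cow 510 at 1 d. FASN, the fatty acid synthase, was at 7.21, 8.16, 7.43 and 7.28 at 1 d and at 7.71 to 9.33, median 8.71, at 9 d, where the lowest value was that of cow 527. FASN rose by 1.18 (SE 0.26, adjusted p = 0.0101). The elongation enzyme TECR rose by 0.64 (adjusted p = 0.0218) and lost its call without cow 445 or 510 at 1 d or cow 477 at 9 d. ACLY (0.25), ACACA (0.11) and the regulator SREBF1 (0.12, adjusted p = 0.878) did not pass.

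In the cholesterol pathway ACAT2, the thiolase of its first step, was at 10.2, 10.65, 10.59 and 10.24 at 1 d and at 10.85 to 11.23, median 11.01, at 9 d. LSS, lanosterol synthase, was at 8.35, 9.21, 9.10 and 8.51 at 1 d and at 9.37 to 9.72, median 9.52, at 9 d. Neither gene overlapped, and in both the 1 d values of cows 445 and 510 were the low ones. ACAT2 rose by 0.60 (SE 0.09, adjusted p = 0.000536), under every alternative run, and LSS by 0.74 (SE 0.14, adjusted p = 0.00288). The others that rose were DHCR7 (0.80), which makes cholesterol in the last step, TM7SF2 (0.70), NSDHL (0.62), MSMO1 (0.57), mevalonate kinase MVK (0.51) and EBP (0.39). HMGCS1, HMG-CoA synthase, was at 0.95 (adjusted p = 0.0847) and SQLE, squalene epoxidase, at 0.47 (adjusted p = 0.223). No member of the 13 measured sterol uptake and regulation genes passed by limma. At an unadjusted p under 0.05 the count was also 0 of 13, against 17.9% of all genes.

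**Figure D4:**
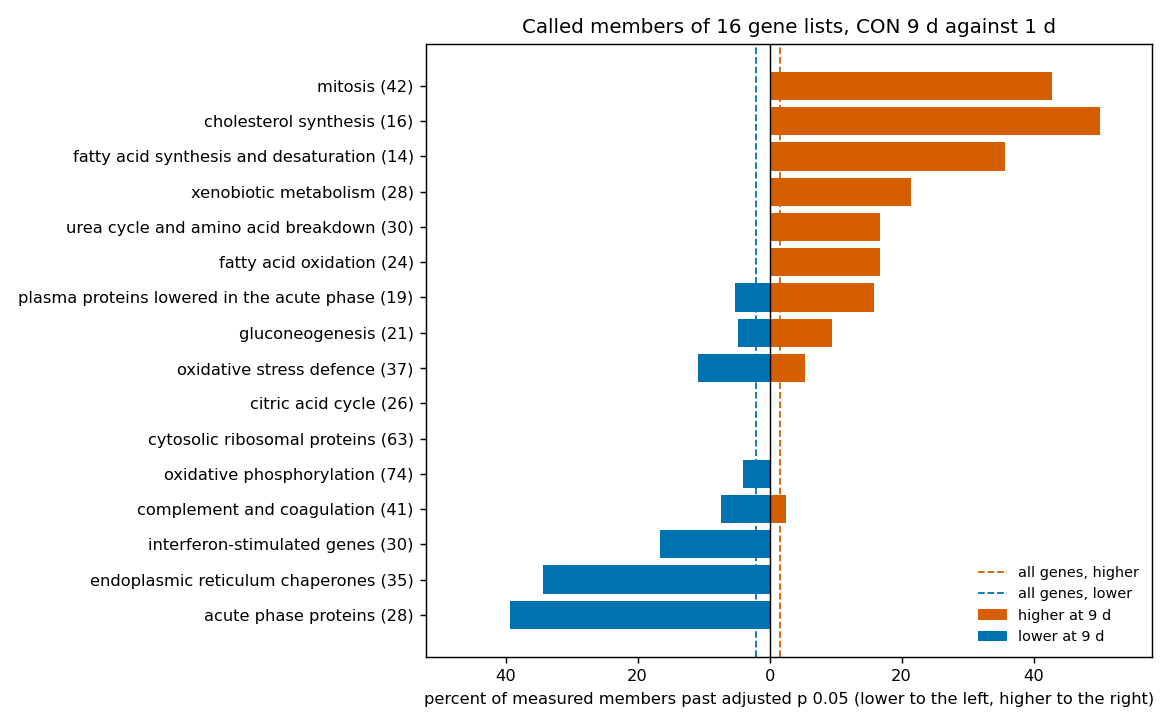
Percent of measured list members past the threshold (x axis), lower at 9 d to the left in blue and higher to the right in orange, for 16 gene lists (y axis, number measured in brackets). Dashed lines are the shares of all genes, 2.01% lower and 1.58% higher; the mitosis and cholesterol synthesis lists lie farthest to the right and the acute phase and endoplasmic reticulum lists farthest to the left.

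Several hepatocyte enzymes rose by smaller steps. In the list of urea cycle and amino acid breakdown enzymes 5 of 30 measured genes rose and none fell (1.58% and 2.01% of all genes). The median was 0.20, and 4 did not overlap between the days (3.84% of all genes). OTC, the urea cycle enzyme that makes citrulline, was at 9.38, 9.14, 8.89 and 8.64 at 1 d and at 9.55 to 9.97, median 9.91, at 9 d. Every 9 d value lay above every 1 d value. OTC rose by 0.84 (SE 0.14, adjusted p = 0.000893) and kept its call under every alternative run. HIBADH (0.50) and IVD (0.36), of branched-chain amino acid breakdown, HPD of tyrosine breakdown (0.49) and ALDH4A1 of proline breakdown (0.38) rose too. SDS, also on the list, did not pass but changed by -2.35, -0.91, -1.41 and -0.16 in cows 445, 477, 483 and 510. The count was 3 without cow 445 or 483 at 1 d, without cow 510 or 528 at 9 d, with no block and in the fit of the 10 arrays alone, and 1 in the 4 paired cows.

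Of 28 measured xenobiotic enzymes 6 rose and none fell (1.58% and 2.01% of all genes), with a median of 0.27 and 23 above 0. CYP2D14, a cytochrome P450, was at 12.48, 12.21, 12.39 and 12.12 at 1 d and at 12.76 to 13.01, median 12.88, at 9 d, with no overlap. CYP2D14 rose by 0.59 (SE 0.11, adjusted p = 0.00176) and aldehyde oxidase AOX1 by 0.69 (SE 0.13, adjusted p = 0.00362). SULT1A1, ADH4, EPHX2 and ALDH1A1 rose by 0.28 to 0.39. Of the 6, 3 rose without cow 510 at 9 d, 4 with no block and 1 in the fit of the 10 arrays alone. HSD11B1, which regenerates active glucocorticoid, was at 13.20, 13.18, 12.82 and 13.08 at 1 d and at 13.54 to 13.74, median 13.66, at 9 d. It did not overlap and rose by 0.58 (SE 0.08, adjusted p = 0.000113), as 1 of 18 measured genes of bile acid and steroid metabolism.

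Fatty acid oxidation had 4 risers and no faller among 24 measured genes (1.58% and 2.01% of all genes), with a median of 0.04. HADH, a dehydrogenase of mitochondrial beta-oxidation, was at 11.92, 12.28, 12.17 and 11.89 at 1 d and at 12.53 to 12.76, median 12.59, at 9 d. No value overlapped, and HADH rose by 0.55 (SE 0.10, adjusted p = 0.00113). ACAA2 (0.35), ACADS (0.31) and ECHS1 (0.18) rose as well. ACADVL was at -0.31 (adjusted p = 0.119). The number of risers was 1 without cow 445 at 1 d, where 3 members fell, 1 without cow 510 at 9 d, and 2 without cow 510 at 1 d or cow 445 or 477 at 9 d. It was 2 with no block or with cow as a fixed term, and 1 in the fit of the 10 arrays alone.

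Genes of the fasting response moved both ways. VNN1, a pantetheinase controlled by the fatty acid receptor PPAR-alpha, was at 8.93, 10.47, 10.13 and 8.67 at 1 d and at 10.28 to 12.12, median 11.52, at 9 d. The lowest 9 d value came from cow 528, and VNN1 rose by 1.88 (SE 0.35, adjusted p = 0.00251). At 9 d VNN1 was 1.28 above its level at -8 d (adjusted p = 0.0388). ANGPTL4, a secreted inhibitor of lipoprotein lipase, was at 8.53, 9.62, 10.02 and 9.28 at 1 d and at 7.49 to 8.83, median 7.85, at 9 d. Cow 445 at 1 d and cow 483 at 9 d made the days overlap. ANGPTL4 fell by 1.37 (SE 0.27, adjusted p = 0.0043), after an increase of 2.10 from -8 d to 1 d (adjusted p = 5.38e-05). VNN1 and ANGPTL4 did not pass in the fit of the 10 arrays alone. PPARA (-0.11), PPARGC1A (-0.04) and PDK4 (0.22) did not pass. The whole list had 1 riser and 2 fallers, with CREB3L3, among 19 (1.58% and 2.01% of all genes).

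In gluconeogenesis 2 of 21 measured genes rose and 1 fell (1.58% and 2.01% of all genes), with a median of -0.02. The faller was PC, pyruvate carboxylase, which brings lactate and alanine carbon into the pathway. It was at 11.74, 11.98, 11.76 and 11.78 at 1 d and at 11.03 to 11.32, median 11.15, at 9 d. The days were well apart and tight within each day. PC fell by 0.66 (SE 0.18, adjusted p = 0.0358), and its adjusted p was 0.00572 in the fit of the 10 arrays alone. Neither the -8 d nor the HIGH arrays enter that fit, and the cause of the smaller p was not tested. PC lost its call without 7 of the 10 arrays in turn, cow 528 among them (adjusted p = 0.0626), and 1 of its 3 probe sets passed. PC stayed 0.86 above its level at -8 d (adjusted p = 0.00523). The risers, MMUT (0.34, SE 0.07, adjusted p = 0.00476) and PCCB (0.44, adjusted p = 0.0251), carry propionate toward glucose. PCK1 was at -0.01 (adjusted p = 0.976) and G6PC1, which releases glucose, at 0.40 (adjusted p = 0.182). SDS did not pass either, though it changed by -2.35, -0.91, -1.41 and -0.16 in cows 445, 477, 483 and 510.

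In the growth hormone and insulin-like growth factor axis 0 of 16 measured members passed by limma, and the median was 0.14. At an unadjusted p under 0.05, 9 differed, 5 higher and 4 lower, against 17.9% of all genes. IGF1 was at 7.90, 7.57, 7.64 and 7.73 at 1 d and at 7.81 to 8.12, median 8.05, at 9 d. It was higher in 4 of 4 cows, with a change of 0.31 (SE 0.13) that did not pass (adjusted p = 0.213), while 1 of its 4 probe sets did. From -8 d to 1 d IGF1 fell by 0.69 (adjusted p = 0.00142). IGFBP2 was at 0.48 (adjusted p = 0.224), and GHR (0.39), IGFBP1 (0.25), SOCS2 (0.11) and INSR (0.30) did not pass either. DDIT4, an inhibitor of mTOR signalling, was at 9.11, 10.15, 9.27 and 9.52 at 1 d and at 10.2 to 11.65, median 11.29, at 9 d, with no overlap. DDIT4 rose by 1.65 (SE 0.42, adjusted p = 0.0246), lost its call without 5 arrays in turn and with no block, and at 9 d differed by -0.10 from its level at -8 d.

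**Figure D5:**
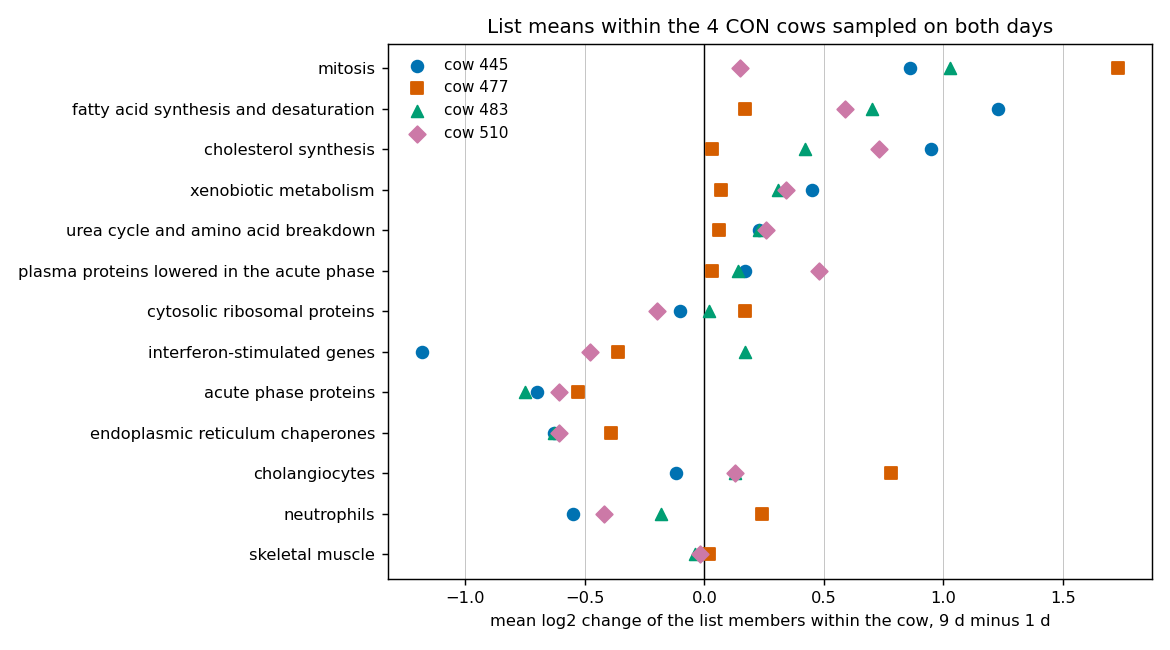
Mean log2 change of the members of 13 gene lists (y axis) from 1 d to 9 d (x axis) within each of the 4 cows sampled on both days; each marker is 1 cow. All 4 markers of the acute phase and endoplasmic reticulum lists lie below 0, while the mitosis list runs from 0.15 (cow 510) to 1.73 (cow 477).

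Other lists held few members past the threshold. Of 74 measured oxidative phosphorylation subunits 3 (4.05%) fell, against 2.01% of all genes: UQCR11 by 0.43, NDUFB11 by 0.22 and NDUFB9 by 0.20. Of the subunits 62 lay below 0, as did 5013 of all 9155 genes, and the median was -0.09. At an unadjusted p under 0.05, 22 subunits were lower and 0 higher, against 10.8% and 7.11% of all genes. NDUFB11 and NDUFB9 did not pass without the muscle-containing array, and 6 subunits fell without cow 445 at 1 d. Lipoprotein genes APOE (-0.27) and APOC3 (0.21) moved in opposite directions. AHCY (0.14) and ALDH1L1 (0.45) rose in methyl and glycine metabolism, and neither passed with no block for cow. Of 19 measured metal handling genes 2 fell, TFRC and CP, and 1 rose (2.01% and 1.58% of all genes), with a median of -0.28. At an unadjusted p under 0.05, 7 were lower (10.8% of all genes). The list mean changed by -0.20, -0.31, -0.50 and -0.36 in cows 445, 477, 483 and 510. The iron uptake receptor TFRC fell by 0.79 (SE 0.13, adjusted p = 0.000783) and the copper importer SLC31A1 rose by 0.27. CEBPG, a partner of ATF4, fell by 0.40 (adjusted p = 0.0334). It was the 1 faller beside 1 riser among 24 measured genes of the ATF4 list, whose median was -0.22. At an unadjusted p under 0.05, 7 of these genes were lower and 2 higher, against 10.8% and 7.11% of all genes. No member passed by limma among ketogenesis (3 measured), glucose and insulin signalling (23), tricarboxylic acid cycle (26), heat shock (21), ribosomal protein (63), proteasome (31) or antigen presentation genes (21). At an unadjusted p under 0.05 these lists had 1, 4, 2, 5, 8, 8 and 1 members, against 17.9% of all genes. Of these, 0, 3, 2, 3, 7, 8 and 1 were lower, against 10.8% of all genes. Of the 31 proteasome genes 26 lay below 0. Their mean changed by -0.24, -0.02, -0.09 and -0.12 in cows 445, 477, 483 and 510.

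Markers of the cell types that a liver biopsy can hold were read on the same arrays. The hepatocyte list averaged 13.67 to 13.75 at 1 d and 13.56 to 13.76 at 9 d. Of its 19 measured members 4 fell, FGB, FGG, HPX and ASGR1, against 2.01% of all genes. The median change was 0.07, and 12 members lay above 0. FGB, FGG and HPX are also on the acute phase list. ASGR1 lost its call when any of the 10 arrays was left out, and FGG when any of 5 was. No marker passed by limma for Kupffer cells and macrophages (12 measured, 1 at an unadjusted p under 0.05), neutrophils (12, 4), T and natural killer cells (19, 1), B cells (8, 0), stellate cells (16, 1), endothelium (17, 1) or bile duct cells (10, 1). Over all genes 17.9% were at an unadjusted p under 0.05. The neutrophil list averaged 5.55 to 5.95 at 1 d and 5.37 to 5.79 at 9 d. Its median change was -0.16, with 8 markers below 0 and 4 above, from -0.98 (S100A8) to 0.24. S100A12 was at -0.83, and S100A8 and S100A12 are also on the acute phase list. The neutrophil list mean changed by -0.55, 0.24, -0.18 and -0.42 in cows 445, 477, 483 and 510. The part of neutrophils in the acute phase and interferon results was not tested. The erythroid list had 1 faller of 10, TFRC, and 4 members lower at an unadjusted p under 0.05 (2.01% and 10.8% of all genes). Its mean changed by -0.15, -0.34, -0.14 and -0.57 in cows 445, 477, 483 and 510, and the haemoglobin gene HBB was at -1.33 (adjusted p = 0.154). The T and natural killer cell list, which could carry dividing cells, averaged 5.47 to 5.70 at 1 d and 5.40 to 5.85 at 9 d, and the Kupffer cell list 9.39 to 9.65 and 9.09 to 9.83. The bile duct list ran from 6.43 to 6.71 at 1 d and from 6.23 to 7.21 at 9 d, and gained 0.78 in cow 477, which also gained most in mitosis genes. Its part in that result was not tested.

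The same interval was set against that of the cows on the high-energy diet, in which 2195 probe sets (9.14%) differed between 9 d and 1 d over 12 arrays of 6 cows. The difference in change between the diets passed for no probe set by limma (0.0% of 24016), with 1629 (6.78%) at an unadjusted p under 0.05. Leaving out cow 477 at 1 d gave 2. The changes under HIGH were -3.68 for GPX3, -1.47 for ITIH4, 3.00 for PCLAF and 2.35 for FADS2. List medians under HIGH were -0.24 for acute phase proteins, -0.58 for endoplasmic reticulum chaperones, -0.76 for interferon-stimulated genes, 0.67 for mitosis and 0.68 for cholesterol synthesis. The genes with the smallest p for the difference included IPO4, an importin (0.00 under CON and 0.49 under HIGH, adjusted p = 0.424), and RNF25, a ubiquitin ligase (-0.10 and 0.33, adjusted p = 0.424). A p above the threshold does not show that the diets acted alike.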

How the data were processed

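Per the labels, RNA of liver biopsies stored in a protective solution was extracted with RNeasy columns and hybridised to Affymetrix bovine arrays as biotinylated cRNA. Expression Console 1.1 of Affymetrix and RMA are the tools that the submitters' processing notes name, and the table the authors deposited holds log2 values. RMA quantile normalises the arrays, which makes each change relative to the other probe sets and narrows changes at both ends of the scale. Its settings are not given in the sources used here.

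The table has 24128 probe sets, less 112 controls, with no filter on level. Of the 24016 tested, 13292 carried 1 symbol (9155 genes), 86 several and 10638 none in the platform annotation. A gene was read from its brightest probe set, save in the count of muscle genes by array.

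All 32 arrays entered limma 3.58.1 (R 4.3.3, Python 3.11.15): 6 group means, cow as a random block (consensus correlation 0.138), eBayes with trend and 26 residual degrees of freedom. All tests were two-sided. Cow numbers in the labels paired the arrays. As a check, deviations from the group means correlated at 0.243 to 0.334 within the 4 cows and at -0.225 to 0.126 between cows. The median SE was 0.10 and the smallest change that passed 0.14, and the number of arrays limits the precision. On simulated data for this comparison (24016 probe sets), 80% of 1.5-fold and 96% of 2-fold changes were recovered, and 9 of 185 calls were false. The simulated noise was normal, with 1 spread per probe set on all days, a fixed cow correlation and no muscle-containing array. Some real genes, such as HP, had a spread that differed between days. These rates therefore need not hold for the real arrays.

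Named genes are the 15 largest rises and 15 largest falls past the threshold with 1 sign in all 4 paired cows, 32 genes followed by name (27 measured), up to 6 members with the smallest p from each of 41 lists (32 pathways, 9 cell types), and the 5 smallest p for diet by time. The other list members given by name were chosen after their values were seen. The members, lists and the muscle gene list were chosen with earlier results of these data known. Alternatives were other normalisations, variance models, blocks, subsets of arrays or probe sets, and each array left out in turn.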

Additional observations from a re-analysis of the deposited data

Results flagged for a closer look

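Values that lay far from the others of their day were sought in 117 genes on both days, and 12 of 234 groups (5.13%) held one, where chance alone gives about 5%, or 1 in 20. At 1 d cow 445 was lowest for ACAA2 at 12.46 (next 12.88) and for ACADVL at 11.44 (next 11.85), and highest for ERO1A at 7.14 (next 6.26). Cow 477 at 1 d was highest for ACADS at 10.69 (next 10.55) and PC at 11.98 (next 11.78), and lowest for FGG at 14.73 (next 14.77) and TEDC2 at 6.16 (next 6.58). Cow 483 at 1 d was highest for PIM1 at 9.70 (next 8.28).

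At 9 d SAA3 was highest in cow 477 at 11.61 (next 9.80), IRF7 in cow 483 at 6.86 (next 6.50) and MMUT in cow 510 at 13.25 (next 13.04). OTC was lowest in cow 528 at 9.55 (next 9.84). The actin 3′ control probe set, outside the genes tested, was at 11.52 in cow 528 at 9 d, against 6.13 to 6.57 on the other 9 arrays. The 3′ minus 5′ difference of actin reached 3.87 at 9 d.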

How the results depend on the processing

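The count of 663 probe sets was 375 with no replicate block, 145 with only the CON arrays at 1 d and 9 d, 115 with only the paired cows and a fixed cow term, and 223 at 1.5-fold or more. Leaving out each array in turn gave 304 to 691. The cause was not tested, beyond the fewer arrays and degrees of freedom that several of these settings have. A fixed cow term as replicate block over all arrays gave 699, and the other scalings and variance models run moved the count by less than 1.5 times. Diet by time gave 0 to 2 with each array left out.

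Of 97 genes past the threshold that were followed, 14 kept their call in every alternative and none changed sign. Leaving out some array ended the call of 53, the fit of the 10 arrays alone of 70 and no block of 29. With 4 paired cows a sign-flip test could not go below 0.125.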

Other observations

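Some genes set 1 cow apart on all of its 3 arrays, whatever the day. TRAK2, which links mitochondria to motor proteins, was at 3.08 to 3.51 in cow 445 and at 6.76 to 8.96 on the 12 arrays of the other CON cows. ASIP, the agouti signalling protein, was at 6.96 to 8.19 in cow 445 and at 5.10 to 5.41 in the others. CYP2B6, a cytochrome P450, was at 6.72 to 7.34 in cow 477 and at 8.70 to 10.82 in the others. These genes were picked after their values were seen.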
